A study of Mus musculus with 8 samples.

Results

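The comparison described here sets mouse spermatogonial stem cells that had been cultured for 14 to 18 months against the same cell type cultured for 7 to 10 weeks, with source testes of 8-day-old mice on both sides. Each side had 3 arrays. All 19938 genes of the value table that are named through a probe set with a single symbol entered, each through its brightest probe set. The series holds 8 arrays in all, and the other 2 carry cells labelled as a serial-transplant line with a donor age of 1500 days, also cultured for 14 to 18 months. Those 2 arrays entered the fit for their spread, and their levels are given beside the others where they help to place a gene. The labels give no strain, transgene or treatment, do not mention a feeder layer, and do not say whether arrays of a group came from separate mice or separate cultures. The p-values therefore measure how far these arrays scatter, and that scatter may be technical.

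Spermatogonial stem cells are the germ cells at the base of the testis tubules that renew themselves and feed sperm production. In the testis, GDNF from Sertoli cells and fibroblast growth factors keep them undifferentiated, retinoic acid drives them towards differentiation, and the receptor Kit marks the cells that have taken that step. In culture they grow as clumps under the same growth factors, and whatever somatic cells of the testis or of a supporting layer are left contribute their own RNA to the total. A bulk array cannot tell fewer cells of a type from less RNA per cell, which holds for every cell identity below.

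Signals are log2 RMA values, on which a difference of 1 is a 2-fold change. Changes are long minus short culture in log2 with the standard error of the fit (n = 3 and 3), and a gene "rose" or "fell" where limma's Benjamini-Hochberg adjusted p over all 28944 probe sets was under 0.05. By that rule 1217 genes (6.10%) rose and 1334 (6.69%) fell, 12.8% in all, and the median change of all genes was -0.04. Of these, 340 rises (1.71% of genes) and 427 falls (2.14%) passed again in each of 6 fits that left out 1 array, and are called held. Falls were larger than rises: 244 genes fell and 73 rose by at least 1. Counts depended on single arrays, with 380 rises and 476 falls without long-culture replicate 3 and 476 and 633 without long-culture replicate 1. There were 795 rises without short-culture replicate 2 and 834 falls without long-culture replicate 2. No gene was called in the opposite direction in any of these fits. Rises made up 47.71% of the calls, but 58.51% (1505 against 1067) when each array was centred on its median. Short-culture replicate 2 stood apart, correlating at 0.991 and 0.990 with the other short-culture arrays, which correlated at 0.996 with each other. Its fibroblast genes lay 0.33 above and its G2 and M phase genes 0.27 below the short-culture mean (medians). Signals below 5.52, which is the largest lower quartile among the compared arrays, lie in the range of background, so a fall into that range is a lower bound. Most of the 20 genes of each direction with the largest change that held are named below, and the plot of single genes by array shows some of them.

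**Figure D1:**
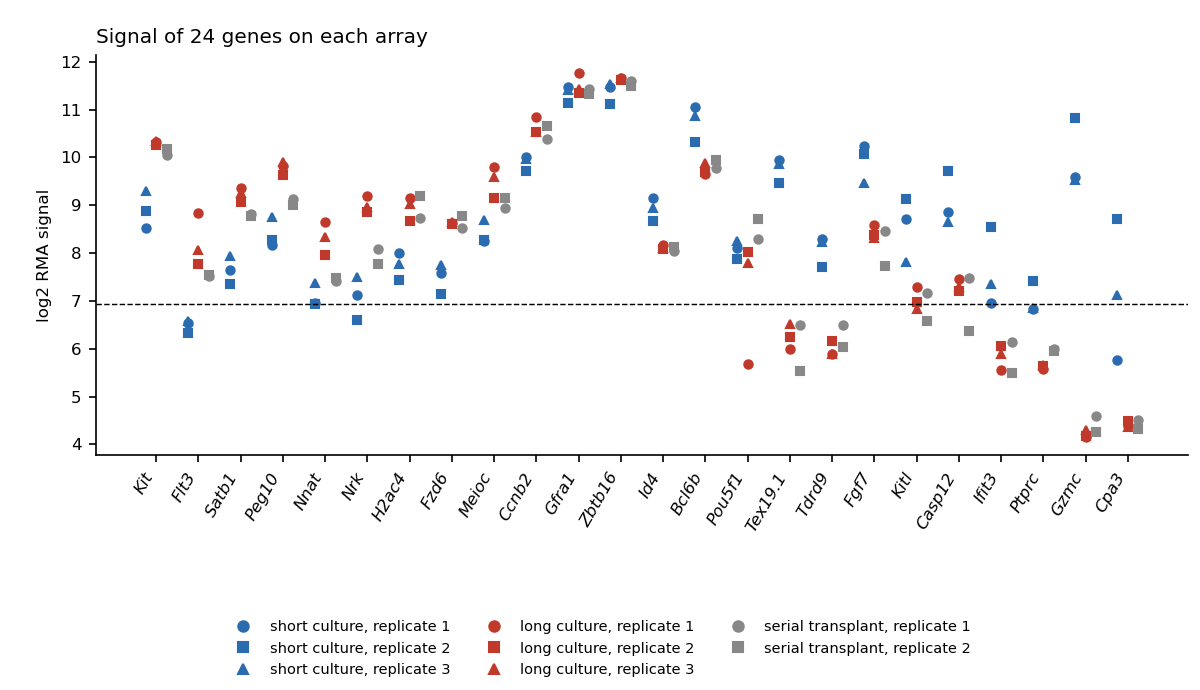
Log2 RMA signal (vertical axis) of 24 genes on each of the 8 arrays, with short-culture arrays in blue, long-culture arrays in red and serial-transplant arrays in grey, 1 marker shape per replicate. The dashed line is the median of all probe sets (6.94); the red and blue points do not overlap for any drawn gene except Gfra1 and Pou5f1.

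The arrays carried the markers of their label. Ddx4, the germ cell RNA helicase, read 11.81, 11.46 and 11.97 on the short-culture arrays and 10.87, 11.74 and 11.59 on the long-culture arrays. Dazl, a germ cell RNA-binding protein, read 12.32, 12.08 and 12.43 on the short-culture arrays and 12.77, 12.62 and 12.81 on the long-culture arrays. Zbtb16, the PLZF repressor of undifferentiated spermatogonia, read 11.47, 11.11 and 11.53 on the short-culture arrays and 11.67, 11.61 and 11.65 on the long-culture arrays, and Gfra1, the GDNF co-receptor, read 11.47, 11.13 and 11.40 and 11.76, 11.34 and 11.43. All these signals lie far above that of a typical probe set (median 6.94), and the short and long arrays overlapped for Ddx4 and Gfra1. None of 24 spermatid genes passed the test in either direction. Only 4 of them had a short- or long-culture mean above the median of 6.94. Both groups thus carried the markers of spermatogonia at high signal.

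Among the largest rises were surface receptors of stem and progenitor cells. Kit, the receptor for stem cell factor, read 8.53, 8.89 and 9.30 on the short-culture arrays and 10.32, 10.26 and 10.35 on the long-culture arrays, a rise of 1.41 ± 0.16 (limma, adjusted p = 0.00123). Flt3, its relative that is best known from blood progenitors, read 6.54, 6.33 and 6.59 on the short-culture arrays and 8.85, 7.76 and 8.06 on the long-culture arrays (a rise of 1.74 ± 0.22, limma adjusted p = 0.00163). The 2 serial-transplant arrays stood at 10.06 and 10.17 for Kit, near the long-culture arrays, and at 7.51 and 7.55 for Flt3, between the groups. Cd24a, a surface glycoprotein, rose by 1.91 ± 0.31 and Muc1, an epithelial surface mucin, by 1.496 ± 0.24. Ifitm1, an interferon-inducible membrane protein that also marks early germ cells, rose by 1.40 ± 0.29, most on long-culture replicate 1 (10.65, 9.40 and 9.50, against 7.99, 8.60 and 8.76 in short culture).

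Nuclear and signalling genes made up much of the rest. Satb1, which organises chromatin loops, read 7.65, 7.36 and 7.95 on the short-culture arrays and 9.36, 9.07 and 9.25 on the long-culture arrays (a rise of 1.57 ± 0.14, limma adjusted p = 0.000368). Dmrt2, a transcription factor of the Dmrt1 family, rose by 1.40 ± 0.21. The kinase Nrk, known from the placenta, had the largest rise of the rule (1.93 ± 0.20), and its arrays (7.12, 6.59 and 7.51 short, 9.20, 8.85 and 8.96 long) did not overlap. Rragb, a Rag GTPase that reports amino acids to mTORC1, rose by 1.31, the cation channel Trpc1 by 1.32, and Pde5a, which degrades cyclic GMP, by 1.28. Enzymes of lipids and protein acylation rose with them, namely the lipoxygenase Alox12e (1.59), the fatty acid elongase Elovl7 (1.30) and the palmitoyltransferase Zdhhc2 (1.58). The protease inhibitors A2m (1.74) and Csta2 (1.59), the galectin Lgals2 (1.51), the imprinted gene Peg10 (1.39) and Tlcd4 (1.45) rose as well.

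Among the 20 largest falls were germ cell genes, enzymes and receptors, beside the leukocyte granule genes that headed them. Tex19.1, which keeps retrotransposons in check in germ cells, read 9.95, 9.47 and 9.87 on the short-culture arrays and 5.998, 6.24 and 6.52 on the long-culture arrays, a change of -3.51 ± 0.22 (limma, adjusted p = 2.63e-05). Tdrd9, a helicase of the piRNA pathway, read 8.29, 7.70 and 8.23 on the short-culture arrays and 5.88, 6.15 and 5.89 on the long-culture arrays (-2.10 ± 0.17, limma adjusted p = 0.000167). Dpep3, a dipeptidase of the testis, changed by -1.95 ± 0.14. The retinoid enzymes Adh1 (-2.07 ± 0.17) and Aldh1a1 (-2.12 ± 0.21), which act in turn on retinol and retinal, fell as well, to long-culture signals of 7.02, 6.76 and 6.80 and 7.44, 7.26 and 7.40. Npy1r, a neuropeptide Y receptor, changed by -2.51 ± 0.46, Cyp11a1, the first enzyme of steroid synthesis, by -2.35 ± 0.24, the prolactin-family gene Prl2c5 by -2.47 and the protease inhibitor gene Wfdc15a by -1.98. The other 11 of the 20 are granule, leukocyte, caspase and interferon genes, described with their groups below.

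Markers of undifferentiated spermatogonia changed in both directions more often than the background of 6.10% higher and 6.69% lower. Of 40 measured, 8 rose and 6 fell, around a median change of 0.09, and 1 rise and 3 falls held. The held falls were those of Bcl6b, Lhx1 and Id4. Bcl6b and Lhx1, transcription factors induced by GDNF, both fell. Bcl6b read 11.06, 10.32 and 10.87 on the short-culture arrays and 9.65, 9.71 and 9.88 on the long-culture arrays, and Lhx1 8.58, 7.44 and 7.92 on the short-culture arrays and 6.71, 6.54 and 6.80 on the long-culture arrays. Id4, an inhibitor of differentiation in the most primitive spermatogonia, read 9.15, 8.67 and 8.94 on the short-culture arrays and 8.16, 8.08 and 8.11 on the long-culture arrays. None of these overlapped between the groups, and the serial-transplant arrays (9.78 and 9.95, 6.46 and 6.72 and 8.05 and 8.13) read like long culture. Nanos3, an RNA-binding protein of germ cell survival, read 7.74, 7.41 and 7.85 on the short-culture arrays and 8.26, 8.57 and 8.54 on the long-culture arrays and was the held riser. The risers numbered 5 without long-culture replicate 2, 4 without short-culture replicate 2 and 1 without long-culture replicate 1 or 3; the fallers numbered 3 without short-culture replicate 1 or long-culture replicate 1, 2 or 3.

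Genes of the step towards differentiation rose more often than the background. Of 16 such genes, 6 rose (37.5% against 6.10% of all genes) and 2 fell, with a median change of 0.12. The median was 0.03 without short-culture replicate 1 and 0.05 without long-culture replicate 3. Beside Kit, the held risers were Sohlh2, a transcription factor of early differentiation (0.62 ± 0.12), and the X-linked homeobox genes Rhox13 (0.69 ± 0.14) and Esx1 (0.78 ± 0.14). Stra8, the retinoic acid-induced gene that precedes meiosis, read 6.65, 6.81 and 7.69 on the short-culture arrays and 7.78, 8.24 and 8.54 on the long-culture arrays and rose by 1.14 ± 0.25 (limma, adjusted p = 0.0173). That call did not pass without some arrays (adjusted p = 0.0544 without short-culture replicate 1, 0.0524 without long-culture replicate 2 and 0.0791 without long-culture replicate 3). The transcription factor Sox4 fell (-0.53 ± 0.10). Of 21 retinoid genes, a list without Adh1, 3 rose (14.3%) and 3 fell (14.3%), and Aldh1a1 alone held. Retinoid risers numbered 0 without long-culture replicate 3, and the fallers 1 without long-culture replicate 3. Risers of the differentiation list numbered from 4 to 5 in the 6 fits without 1 array.

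Germ cell RNA regulators and meiotic genes leaned upward. Of 21 RNA regulators 9 rose and 1 fell (median 0.29), and the median level of the list was 0.06, -0.20 and 0.13 on the short arrays and 0.32, 0.22 and 0.38 on the long arrays, relative to the short-culture mean. The held risers of the first list were Meioc, which lets germ cells enter meiosis (8.26, 8.27 and 8.69 on the short-culture arrays and 9.79, 9.16 and 9.60 on the long-culture arrays), Nanos1 (0.85 ± 0.15) and Nanos3. Of 35 genes of meiotic prophase 8 rose (22.9%) and 2 fell (5.71%), with a median of 0.26. Tex12, a part of the synaptonemal complex, was lower at 4.72, 5.99 and 5.58 in long culture against 6.98, 6.81 and 6.63 in short culture. The counts were unstable: risers among the RNA regulators numbered 4 without short-culture replicate 2 and 3 without long-culture replicate 1 or 3, and those among the meiotic genes 5 without short-culture replicate 1 or long-culture replicate 1 or 2, 4 without short-culture replicate 2 and 2 without long-culture replicate 3. Short-culture replicate 2, the array that stood apart, was the lowest of the 8 on both lists.

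The piRNA pathway, which silences transposons in germ cells, had calls in both directions, of which only falls held. Of 23, 5 fell (21.7% against 6.69%) and 3 rose. The held falls were Tex19.1, Tdrd9 and Tex19.2 (7.77, 7.36 and 7.61 short, 6.64, 6.69 and 6.37 long). The median change of the list was 0.11, while its mean of -0.26 carries the large falls. Among 24 Rhox and Mage genes 6 fell and 1 rose. Magea5 (6.52, 6.08 and 6.35 short, 3.84, 4.01 and 4.31 long), Magea3 (-1.69) and Magea6 (-1.61) fell into the background range, and since these paralogs are nearly alike their probes may share targets. The piRNA median was 0.03 without short-culture replicate 2. Risers of the piRNA list numbered 0 without short-culture replicate 1 or 2 or long-culture replicate 1, 2 or 3. The fallers numbered 3 without short-culture replicate 1, 2 or 3 or long-culture replicate 1 or 3 in the piRNA list and from 4 to 6 in the 6 fits without 1 array in the Rhox and Mage list.

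Of 30 pluripotency genes 4 rose (13.3% against 6.10%) and 1 fell. Esrrb (0.54 ± 0.10) and Fbxo15 (1.03 ± 0.14) were the held rises. The risers numbered 2 without long-culture replicate 1 or 3, and the fallers 2 without short-culture replicate 2 and 0 without long-culture replicate 3. Lin28a, the let-7 blocker of undifferentiated cells, read 9.02, 9.02 and 9.34 on the short-culture arrays and 9.56, 9.62 and 9.57 on the long-culture arrays, a rise of 0.45 ± 0.11 that did not pass without some arrays (limma, adjusted p = 0.0678 without short-culture replicate 1, 0.0529 without short-culture replicate 2, 0.0638 without long-culture replicate 1, 0.0619 without long-culture replicate 2 and 0.0814 without long-culture replicate 3). Pou5f1, the core pluripotency factor, read 8.11, 7.88 and 8.26 in short culture and 5.68, 8.03 and 7.80 in long culture, so 1 of the 3 long-culture arrays lay far below the rest (limma, adjusted p = 0.24). The same array, long-culture replicate 1, read lowest for Mapk10, the neuronal JNK kinase (9.22, 8.98 and 9.12 on the short-culture arrays and 6.84, 8.08 and 7.55 on the long-culture arrays), whose fall held. Shoc1, a meiotic recombination factor (8.40, 7.84 and 8.42 short, 6.02, 8.08 and 7.96 long), and Trap1a (8.04, 8.01 and 8.07 short, 6.13, 7.99 and 7.88 long), named after their values were seen, were lowest on the same array and did not pass.

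Genes of cell division rose together, with the highest share of rises of the 74 lists. Each of the 60 measured G2 and M phase genes had a positive change, with a median of 0.44. Of them 26 rose (43.3%) and 0 fell, 5 of the rises held, and for 45 every long array lay above every short array (16.2% of all genes). All 60 had a short- or long-culture mean above the median signal. Among genes above that signal 9.68% rose. The share of such genes with every long array above every short array ran from 12.3% on chromosome 13 to 47.9% on chromosome 15. Ccnb2, cyclin B2, read 9.999, 9.72 and 9.96 on the short-culture arrays and 10.84, 10.54 and 10.53 on the long-culture arrays. Ttk, the Mps1 kinase of the spindle checkpoint, read 9.10, 8.86 and 9.05 on the short-culture arrays and 9.95, 9.66 and 9.76 on the long-culture arrays. Both rose on all 3 long arrays, by 0.74 ± 0.13 and 0.79 ± 0.12 (limma, adjusted p = 0.00574 and 0.00389). Cdca8, the borealin subunit of the chromosomal passenger complex (0.68 ± 0.13), Ckap2, a spindle protein (0.68 ± 0.12), and Pttg1, the securin that holds separase (0.69 ± 0.11), were the other held rises. The risers numbered 16 without short-culture replicate 2 and 7 without long-culture replicate 1 or 3, and the list's median was 0.29 without short-culture replicate 2.

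Promoters of these genes often share 2 motifs, so 4 held members are shown as an example of what the group has in common. A CCAAT box recruits NF-Y, and TTTGAA is the core of the cell-cycle homology region read by the DREAM and MuvB complexes. Each line gives 200 bases, from 175 before to 25 after the gene start of RefSeq on GRCm38.p6, in the gene's direction, with every CCAAT and TTTGAA on either strand in capitals.
Ccnb2 (chr9:70421530-70421729, minus strand): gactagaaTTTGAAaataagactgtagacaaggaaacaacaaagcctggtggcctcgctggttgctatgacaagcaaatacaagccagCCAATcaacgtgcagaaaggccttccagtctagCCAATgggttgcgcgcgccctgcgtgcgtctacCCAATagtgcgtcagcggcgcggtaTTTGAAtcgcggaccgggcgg
Cdca8 (chr4:124936893-124937092, minus strand): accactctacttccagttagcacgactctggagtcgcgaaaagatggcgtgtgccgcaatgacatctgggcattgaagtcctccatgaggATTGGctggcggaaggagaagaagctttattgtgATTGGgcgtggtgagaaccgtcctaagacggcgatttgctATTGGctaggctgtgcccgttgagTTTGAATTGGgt
Ttk (chr9:83834514-83834713, plus strand): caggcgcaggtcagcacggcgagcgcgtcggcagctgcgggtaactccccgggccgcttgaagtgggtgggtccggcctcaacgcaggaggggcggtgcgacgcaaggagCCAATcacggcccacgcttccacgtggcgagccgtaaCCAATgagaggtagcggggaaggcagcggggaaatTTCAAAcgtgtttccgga
Ckap2 (chr8:22185795-22185994, minus strand): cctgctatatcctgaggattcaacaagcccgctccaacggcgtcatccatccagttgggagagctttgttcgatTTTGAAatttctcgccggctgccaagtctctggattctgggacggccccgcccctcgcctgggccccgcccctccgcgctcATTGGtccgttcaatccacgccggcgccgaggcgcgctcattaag
In Ccnb2 the CCAAT boxes start at -87, -54 and -21 from the gene start, and TTTGAA at -167 and 5. Cdca8 has CCAAT on the other strand at -85, -51, -11 and 19 and TTTGAA at 14. Ttk has CCAAT at -65 and -28 and TTTGAA on the other strand at 8, and Ckap2 has TTTGAA at -101 and CCAAT on the other strand at -20. The CCAAT at 19 and the TTTGAA at 14 of Cdca8 overlap by a base. Over windows of 250 bases before to 50 after the start, CCAAT occurred in 41.7% and TTTGAA in 17.3% of 15614 measured genes with a promoter in the table. Both occurred in 7.94% of these, and in 64.0% of the 50 genes of the G2 and M phases with a promoter. For the 22 of those that rose the share was 63.6%, so members that passed the test carried the pair about as often as the list as a whole.

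The machinery that carries the chromosomes rose with the mitotic genes. Of 55 genes of kinetochore, condensin and cohesin 21 rose and 0 fell (median 0.34). Cenpq, of the inner kinetochore, read 8.45, 7.89 and 8.26 on the short-culture arrays and 9.33, 8.82 and 9.003 on the long-culture arrays, and Cenpw (0.68 ± 0.13) was the other rise that held. Of 78 repair and checkpoint genes 17 rose (21.8%) and 0 fell (median 0.21). Rad1, of the 9-1-1 checkpoint clamp, had the largest change among them and read 8.67, 8.43 and 8.79 on the short-culture arrays and 9.52, 9.44 and 9.64 on the long-culture arrays. The checkpoint kinase Atr (0.78 ± 0.14), the recombination gene Brca2 (0.67 ± 0.11), the helicase Wrn (0.56 ± 0.10) and the end-joining kinase Prkdc (0.63 ± 0.11) held too. Replication gave fewer calls, 9 rises of 70 (12.9%, against 9.68% of genes above the median signal). Of these Rpa2, of the single-strand binding complex (0.55 ± 0.11), held. Risers of the kinetochore list numbered 9 without long-culture replicate 2, 7 without short-culture replicate 2, 4 without long-culture replicate 1 and 3 without long-culture replicate 3; those of the repair list numbered 10 without short-culture replicate 2 or long-culture replicate 2, 6 without long-culture replicate 1 and 5 without long-culture replicate 3. Replication risers numbered 5 without long-culture replicate 2 and 1 without short-culture replicate 2 or long-culture replicate 1 or 3.

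Genes of the G1 phase had a median near 0. Of 28, 4 rose (14.3% against 6.10% of all genes and 9.68% of genes above the median signal) and 1 fell, around a median of 0.01. E2f5, a pocket-protein partner, rose by 0.80 ± 0.11 and held. Cdkn2a, the locus of the p16 and p19 senescence inhibitors, read 8.36, 8.45 and 8.40 on the short-culture arrays and 8.69, 8.53 and 8.73 on the long-culture arrays and did not pass (limma, adjusted p = 0.122). Cdk6 read 9.11, 9.44 and 8.93 in short and 8.60, 8.14 and 8.21 in long culture. Its fall of -0.84 ± 0.17 did not pass without some arrays (limma, adjusted p = 0.0521 without long-culture replicate 3). The G1 risers numbered 2 without short-culture replicate 2 or long-culture replicate 3 and 1 without long-culture replicate 1, and the fallers 3 without short-culture replicate 3 and 0 without long-culture replicate 3.

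Histone genes also rose more often than the background. Of 34 measured, 13 rose (38.2%) and 0 fell (median 0.34), and 5 held. H2ac4, a replication-dependent H2A gene, read 8.01, 7.44 and 7.78 on the short-culture arrays and 9.15, 8.67 and 9.03 on the long-culture arrays, a rise of 1.20 ± 0.17 (limma, adjusted p = 0.00314). H2az2, of the variant H2A.Z that marks promoters, read 10.54, 10.45 and 10.61 on the short-culture arrays and 11.49, 11.14 and 11.18 on the long-culture arrays. H2bc3 (0.79 ± 0.12), H2bc14 (0.64 ± 0.12) and H2ac15 (0.55 ± 0.09) were the other held rises, and no long array overlapped a short array in these 5 genes. Genes of a histone cluster are close copies, so single values may be shared between them. Short-culture replicate 2 read near its group here (0.01, -0.02 and 0.01 on the short arrays, relative to their mean), unlike on the mitotic list. The risers numbered 8 without short-culture replicate 1, 6 without long-culture replicate 1 and 5 without long-culture replicate 3.

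Chromatin regulators gave no held call on either list. Of 41 Polycomb and heterochromatin genes 3 rose (7.32%) and 2 fell (4.88%), near the background. Of 16 DNA methylation genes 3 fell (18.8% against 6.69%) and 0 rose. The falls numbered 1 without short-culture replicate 1, 2 or 3 or long-culture replicate 2 and 0 without long-culture replicate 1 or 3. On the Polycomb list risers numbered 0 without long-culture replicate 1 or 3 and fallers 0 without short-culture replicate 1 or long-culture replicate 1, 2 or 3.

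Imprinted genes, of which somatic cells often use the copy of a single parent, changed gene by gene. Which copy these germ cell cultures used was not measured. Of 22 paternally expressed genes 4 rose (18.2% against 6.10% of all genes) and 4 fell (18.2% against 6.69%). All 4 rises held, where 1.71% of all genes were held rises. Peg10, derived from a retrotransposon, read 8.16, 8.27 and 8.75 on the short-culture arrays and 9.82, 9.62 and 9.91 on the long-culture arrays, and its chromosomal neighbour Sgce, a sarcoglycan, read 6.44, 5.89 and 6.45 on the short-culture arrays and 7.64, 7.15 and 7.33 on the long-culture arrays. Ndn, a growth suppressor of neurons, rose by 0.97 ± 0.13 and Nnat, a membrane proteolipid, by 1.23 ± 0.17. Against them, Dlk1, a surface ligand of progenitor and stromal cells (11.54, 11.76 and 11.14 short, 10.36, 10.44 and 10.38 long), and Impact, a translation regulator (10.85, 11.50 and 10.64 short, 9.91, 9.72 and 9.66 long), fell. Of 21 maternally expressed genes 3 rose and 4 fell. The held changes were the rises of Gatm, of creatine synthesis (1.11 ± 0.21), and of the chloride channel Ano1 (0.64 ± 0.10). Igf2 read 10.40, 10.03 and 10.10 on the short-culture arrays and 10.20, 9.79 and 10.16 on the long-culture arrays, with overlapping arrays (limma, adjusted p = 0.711). Risers numbered 4 in each of the 6 fits without 1 array among the paternally expressed genes, and the fallers 2 without long-culture replicate 1, 2 or 3. Among the maternally expressed genes, risers numbered from 2 to 4 in the 6 fits without 1 array and fallers 0 without long-culture replicate 3.

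**Figure D2:**
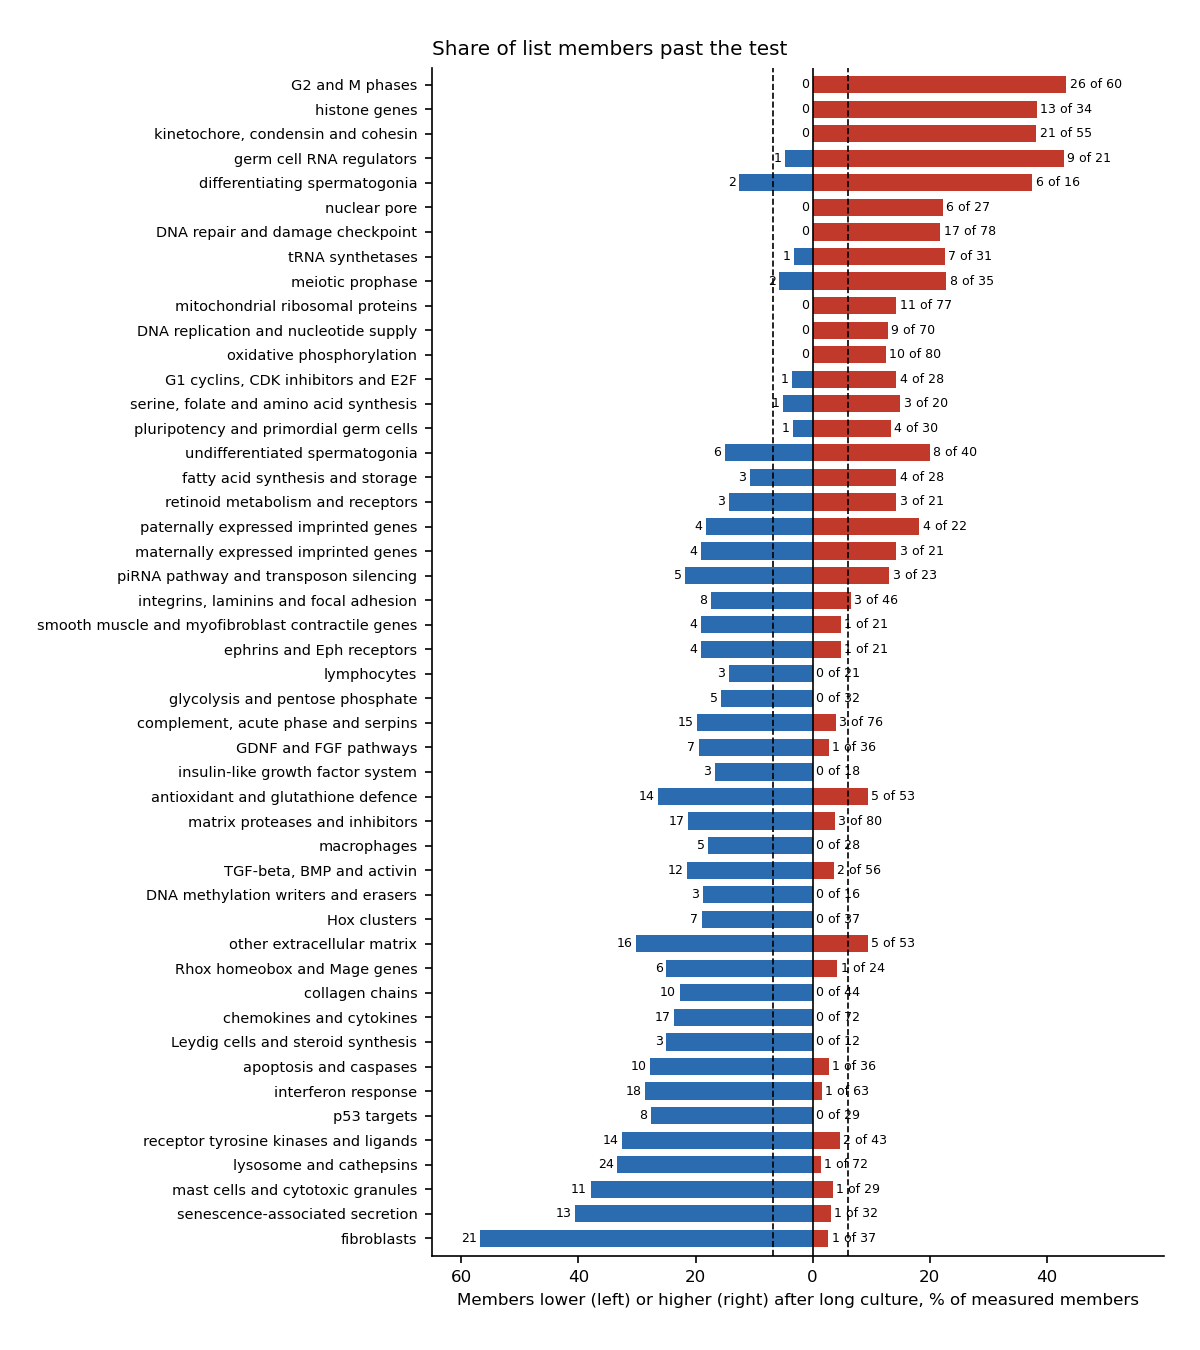
Share of each list's measured members that rose (red, right) or fell (blue, left) after long culture, in percent, with the counts beside the bars; the 48 lists drawn have a share of at least 2 times the background in a direction. Dashed lines mark the background over all genes (6.10% higher, 6.69% lower); mitotic, histone and germ cell lists lie at the top and fibroblast, secretion, granule and lysosome lists at the bottom.

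Chromosome 15 carried more rises than any other chromosome. Of its 748 genes 143 rose and 43 fell (5.75%). The chromosome held 3.75% of the genes but 11.8% of the rises and 13.8% of the held rises. Among genes above the median signal, 30.7% of its 443 rose against 8.79% of the 10455 on other chromosomes (9.68% over all chromosomes), and 73.4% had a positive change. Without long-culture replicate 3 the 136 rises among these 443 became 44, and without long-culture replicate 1, 2 or short-culture replicate 1 they became 76, 85 or 98.

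The shift was present on each long-culture array. The median deviation of these 443 genes from the short-culture mean, relative to all genes above the median signal, was -0.01, -0.05 and 0.07 on the short arrays and 0.13, 0.25 and 0.26 on the long arrays. The serial-transplant arrays stood at 0.33 and 0.31. Cut into 10 blocks of 44 or 45 genes in map order, the share of each block's genes that rose was between 18.2% and 46.7% and the median change between 0.12 and 0.35. On long-culture replicate 1, however, blocks 5, 8 and 10 stood at -0.0008, -0.0007 and -0.011, within the range of the short arrays. In block 8 long-culture replicate 2 (0.06) also lay below short-culture replicate 3 (0.08). Smaller shifts occurred elsewhere. All 3 long arrays lay above all 3 short arrays also for chromosomes 1, 14, 16 and 18, and below them for chromosomes 5, 7, 11, 13 and 17. Chromosome 18 stood at 0.12, 0.07 and 0.06 and chromosome 14 at 0.09, 0.07 and 0.07 on the long arrays, and chromosome 5 at -0.06, -0.07 and -0.08. Chromosome 8 stood at -0.06, 0.14 and 0.08 on the long arrays and 0.26 and 0.26 on the serial-transplant arrays, chromosome 13 at -0.19 on long-culture replicate 1, and chromosome 19 at 0.14, -0.08 and -0.05. Copy number of DNA was not measured in these samples.

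**Figure D3:**
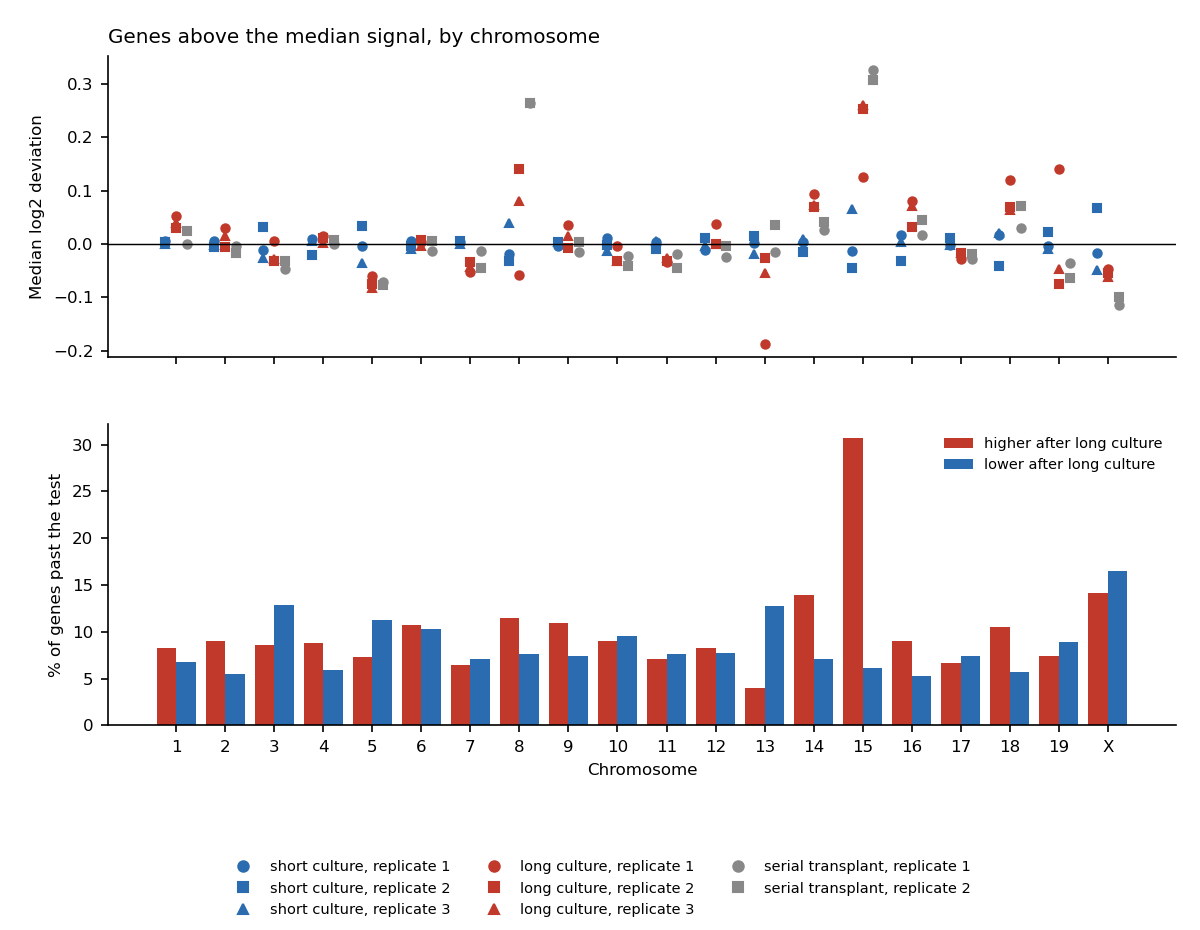
Upper panel: per chromosome, the median log2 deviation of genes above the median signal from their short-culture mean, relative to all such genes, 1 point per array. Lower panel: percent of these genes that rose (red) or fell (blue) after long culture; chromosome 15 reached 30.7% higher, and all 3 long-culture arrays and both serial-transplant arrays lie above the short-culture arrays there.

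Named genes of chromosome 15 include several of the held rises. Fzd6, a Wnt receptor, read 7.59, 7.15 and 7.76 on the short-culture arrays and 8.63, 8.60 and 8.64 on the long-culture arrays, and Rspo2, a secreted enhancer of Wnt signals, 9.69, 9.17 and 9.60 on the short-culture arrays and 10.50, 10.34 and 10.43 on the long-culture arrays. Aard (1.25 ± 0.15), Lgals2, Rad1, Ndufb9, Mrpl13 and Zfp251 (0.72 ± 0.12) lie there too. Not all genes there rose: Il2rb, the hyaluronan synthase Has2 (-1.04 ± 0.20), the lysosomal genes Arsa and Laptm4b, and Myc (-0.95 ± 0.19; limma, adjusted p = 0.0550 without long-culture replicate 3) lie on chromosome 15 and were lower.

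Of the risers of oxidative phosphorylation, 5 of 10 lay on chromosome 15. Of 80 genes of the respiratory chain 10 rose (12.5%, against 9.68% of genes above the median signal) and 0 fell. The list has 5 members on chromosome 15 and all of these rose: Ndufb9, Cyc1, Cox6c, Atp5g2 and Ndufa6, the last named after its value was seen. Ndufb9, of complex I, read 9.64, 9.66 and 9.78 on the short-culture arrays and 10.54, 10.41 and 10.56 on the long-culture arrays. Of the other 75 members, 5 rose (median 0.12), and of these Cox7a1, a complex IV subunit of muscle, held (0.78 ± 0.13). The risers numbered 5 without short-culture replicate 1 and 2 without long-culture replicate 1 or 3. In the same way all 4 kinetochore and cohesin genes on chromosome 15 rose, named after their values were seen, namely Rad21 (0.47 ± 0.11), Nipbl (0.40 ± 0.10), Ncaph2 (0.49 ± 0.12) and Cenpm (0.45 ± 0.12), though none of these 4 calls held. Of the list's other 51 members 17 rose. The mitotic list kept 25 of its 26 risers and the histone list all 13 of its risers outside chromosome 15.

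Growth machinery gave mixed counts. Of 77 mitochondrial ribosomal proteins 11 rose (14.3% against 6.10% of all genes and 9.68% of genes above the median signal) and 0 fell (median 0.18). Mrpl13 alone held (8.38, 8.45 and 8.33 on the short-culture arrays and 9.33, 9.04 and 9.13 on the long-culture arrays). Of 27 nuclear pore genes 6 rose (22.2%) and 26 had a positive change (median 0.29). In 20 of them every long array lay above every short array, against 16.2% of all genes. All 27 had a short- or long-culture mean above the median signal, while the 16.2% counts dim genes as well. Nup62cl, a relative of the pore protein Nup62, read 8.60, 8.11 and 8.38 on the short-culture arrays and 9.90, 9.39 and 9.58 on the long-culture arrays and held. Of 31 tRNA synthetases 7 rose (22.6%) and 1 fell (3.23%), and the mitochondrial isoleucine enzyme Iars2 held (0.61 ± 0.11). Cytosolic ribosomal proteins (1 higher and 1 lower of 62), ribosome biogenesis (1 and 0 of 56), the proteasome (3 and 0 of 48) and translation initiation (4 and 0 of 49) lay near or below the background. Without short-culture replicate 2 the cytosolic ribosomal proteins had 5 risers, and without long-culture replicate 3 translation initiation had 0. Risers numbered 7 without short-culture replicate 2, 4 without short-culture replicate 1 or 3, 2 without long-culture replicate 3 and 1 without long-culture replicate 1 among the mitochondrial ribosomal proteins, 3 without short-culture replicate 1 or long-culture replicate 2, 2 without short-culture replicate 2 or long-culture replicate 1 and 1 without long-culture replicate 3 among the nuclear pore genes and 4 without short-culture replicate 1 or long-culture replicate 2, 3 without long-culture replicate 1, 2 without short-culture replicate 2 and 1 without long-culture replicate 3 among the synthetases.

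Intermediary metabolism gave scattered calls. Of 32 glycolytic and pentose phosphate genes 5 fell and 0 rose, with Pgk1 (-0.57 ± 0.10) and the neuronal enolase Eno2 (-0.77 ± 0.12) held and a list median of -0.03. Risers of that list numbered 5 without short-culture replicate 3 and 1 without short-culture replicate 2, and its fallers 3 without long-culture replicate 2 and 2 without short-culture replicate 1 or 2 or long-culture replicate 1 or 3. The mitochondrial isocitrate dehydrogenase Idh2 read 8.87, 9.73 and 8.71 on the short-culture arrays and 8.05, 7.86 and 7.92 on the long-culture arrays and held, while 1 of the 29 genes of the TCA cycle rose and 1 fell. Of 20 genes of cholesterol synthesis 1 rose and 1 fell. Their median was 0.29, 16 were positive, and the risers numbered 5 without short-culture replicate 3, 3 without long-culture replicate 1 and 0 without long-culture replicate 2 or 3. The fall was lost without long-culture replicate 1, 2 or 3. Of 53 antioxidant and glutathione genes 14 fell (26.4%) and 5 rose. The glutathione transferases Mgst1 (8.11, 8.98 and 7.62 short, 6.99, 6.52 and 6.60 long) and Gsta4 (9.90, 10.24 and 9.58 short, 8.80, 8.67 and 8.78 long), which detoxify lipid peroxides, and the metallothionein Mt2 (-0.97 ± 0.14) fell, while Gsto2 (0.81 ± 0.14) and Gstm7 (0.76 ± 0.15) rose. The fallers of that list numbered 8 without long-culture replicate 1, 7 without short-culture replicate 1 or long-culture replicate 2 and 5 without long-culture replicate 3.

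Growth factor ligands and their receptors were lower as a group. Of 43 receptor tyrosine kinases and ligands 14 fell (32.6% against 6.69%), and the 2 that rose were Kit and Flt3. Kitl, stem cell factor and the ligand of Kit, read 8.71, 9.14 and 7.80 on the short-culture arrays and 7.30, 6.97 and 6.83 on the long-culture arrays, a change of -1.52 ± 0.28 (limma, adjusted p = 0.00813). Receptor and ligand thus changed in opposite directions. Pdgfc, a platelet-derived growth factor, read 9.75, 9.83 and 8.89 on the short-culture arrays and 8.34, 8.20 and 8.10 on the long-culture arrays, and its receptor Pdgfra, a stromal marker named after its value was seen, 11.53, 12.45 and 11.48 on the short-culture arrays and 10.44, 10.30 and 10.22 on the long-culture arrays. The collagen receptor Ddr2 (-1.35 ± 0.22) and the Gas6 receptor Axl (-1.14 ± 0.21) fell with them. The fallers numbered 8 without long-culture replicate 1 or 2 and 5 without long-culture replicate 3.

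Genes of the GDNF and FGF pathways gave more falls than rises, though most members passed in neither direction. Of 36, 7 fell (19.4% against 6.69%) and 1 rose (2.78% against 6.10%), with a median of -0.15. Fgf7, keratinocyte growth factor, a product of stroma, read 10.24, 10.08 and 9.48 on the short-culture arrays and 8.59, 8.37 and 8.32 on the long-culture arrays, a change of -1.51 ± 0.21 (limma, adjusted p = 0.00298). Gfra2, the neurturin co-receptor (-0.84 ± 0.15), and Dusp4, a phosphatase that ERK induces (-1.10 ± 0.19), were the other held falls. Ret, the signalling receptor for GDNF, read 10.64, 9.98 and 10.69 on the short-culture arrays and 11.42, 10.87 and 11.27 on the long-culture arrays and was the riser, a call that did not pass without some arrays (limma, adjusted p = 0.0540 without short-culture replicate 2, 0.114 without long-culture replicate 1 and 0.105 without long-culture replicate 3). Etv5, a target of this signal in stem cells, read 10.55, 9.83 and 10.40 on the short-culture arrays and 10.16, 10.26 and 10.45 on the long-culture arrays (limma, adjusted p = 0.918). Fallers numbered 4 without short-culture replicate 1 or long-culture replicate 1 or 2 and 3 without long-culture replicate 3.

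Genes of TGF-beta, BMP and activin also gave more falls than rises, though most passed in neither direction. Of 56 genes 12 fell (21.4% against 6.69%) and 2 rose (3.57% against 6.10%), and 6 falls held. Signalling itself was not measured. The type II receptor Tgfbr2 read 9.89, 10.16 and 9.54 on the short-culture arrays and 8.80, 8.74 and 8.64 on the long-culture arrays. Id2, a BMP target like Id4, read 6.32, 6.49 and 6.37 on the short-culture arrays and 5.40, 5.16 and 5.14 on the long-culture arrays and so ended in the range of background. Ltbp3 (-0.89 ± 0.16) and Ltbp4 (-0.73 ± 0.12), which bind latent TGF-beta in the matrix, and their relative Ltbp2 (-0.74 ± 0.14) fell. Among 59 Wnt genes 6 rose (10.2%) and 4 fell (6.78%), near the background downward. There the rises of Fzd6, Rspo2 and Rspo1 (0.74 ± 0.13) faced falls of Wnt5a (-0.76 ± 0.12) and Fzd8 (-0.76 ± 0.11). Fallers of the TGF-beta list numbered 7 without long-culture replicate 1 and 6 without long-culture replicate 3, and risers of the Wnt list 3 without short-culture replicate 1 or long-culture replicate 1 or 3.

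Lysosomal genes fell broadly. Of 72, 24 fell (33.3%), 1 rose, and 61 had a negative change (median -0.25). Ctsd, cathepsin D, read 12.38, 12.52 and 12.13 on the short-culture arrays and 11.62, 11.62 and 11.63 on the long-culture arrays, a change of -0.72 ± 0.12 (limma, adjusted p = 0.00585). Ctsb, cathepsin B, named after its value was seen, read 11.29, 11.53 and 10.92 on the short-culture arrays and 10.47, 10.31 and 10.53 on the long-culture arrays. Arsa, the sulfatide sulfatase (-0.93 ± 0.19), Atp6v0b, of the proton pump (-0.63 ± 0.13), and Laptm4b (-0.74 ± 0.14) fell as well. By contrast, 4 of 34 autophagy genes fell (11.8%), and none of those held. The autophagy fallers numbered 1 without long-culture replicate 2 and 0 without long-culture replicate 3. The lysosomal fallers numbered 15 without short-culture replicate 1 or 2, 12 without long-culture replicate 1 or 2 and 8 without long-culture replicate 3.

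The measured p53 targets and apoptosis genes gave more falls than rises. The p53 list holds 3 more members, among them a main arrest target and a main death target, that were not analysed here. Of 29 p53 targets 8 fell (27.6% against 6.69%) and 0 rose. Zmat3 (8.69, 8.98 and 8.32 short, 7.75, 7.63 and 7.54 long), Ccng1 (12.11, 12.19 and 11.86 short, 11.41, 11.28 and 11.27 long), Eda2r (-1.11 ± 0.22), Phlda3 (-0.78 ± 0.15) and Plk2 (-0.77 ± 0.11) held. Of 36 apoptosis genes 10 fell (27.8%) and 1 rose (2.78%), and the 5 held falls include 3 caspases. Casp12, a caspase of inflammation and endoplasmic reticulum stress, read 8.86, 9.72 and 8.65 on the short-culture arrays and 7.47, 7.20 and 7.28 on the long-culture arrays, and Casp4, which senses bacterial lipopolysaccharide, 8.63, 9.51 and 8.31 on the short-culture arrays and 7.40, 7.25 and 7.19 on the long-culture arrays. Casp8, the initiator of death receptors, changed by -1.18 ± 0.21, its inhibitor Cflar by -0.88 ± 0.17 and the TNF receptor Tnfrsf1a by -0.78 ± 0.13. The fallers numbered 5 without long-culture replicate 1 or 3 among the p53 targets and 6 without long-culture replicate 1 and 5 without long-culture replicate 3 among the apoptosis genes.

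Secreted factors of senescent cells were the list with the second-highest share of falls. Of 32, 13 fell (40.6%) and 1 rose (median -0.49, or -0.38 without short-culture replicate 2). Ccl2, the monocyte chemokine, read 10.79, 11.16 and 10.11 on the short-culture arrays and 9.36, 9.33 and 9.18 on the long-culture arrays. Angptl4 (-1.57 ± 0.30), the stromelysin Mmp3 (-1.49 ± 0.29), Timp2 (-1.43 ± 0.28), Ccl7 (-1.44 ± 0.25) and Csf2 (-0.83 ± 0.13) held, and fibroblasts also make many of these products. The unfolded protein response (0 higher and 1 lower of 30) and heat shock genes (2 and 2 of 36) gave calls near or below the background. The secretion fallers numbered 8 without long-culture replicate 3.

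Fibroblast genes had the highest share of falls of all lists. Of 37, 21 fell (56.8%), 1 rose and 9 falls held, with a median of -0.70 (-0.53 without short-culture replicate 2). Summed on the linear scale, their signal ran from 49781.5 to 74925.5 on the short arrays, from 34865.5 to 36195.3 on the long arrays and from 24270.2 to 35584.9 on the serial-transplant arrays. Col1a2, a chain of type I collagen, read 11.57, 12.09 and 11.61 on the short-culture arrays and 10.59, 10.82 and 10.74 on the long-culture arrays, and Mmp2, gelatinase A, 10.22, 10.67 and 10.10 on the short-culture arrays and 9.31, 9.34 and 9.29 on the long-culture arrays. Both remained far above the median of all probe sets in long culture, so fibroblast genes were lower there but not at background. Snai2, the Slug repressor of mesenchymal cells, changed by -0.998 ± 0.14, and the collagen cross-linking enzymes Loxl3 and, named after its value was seen, Loxl1 by -0.76 ± 0.14 and -1.21 ± 0.23. Fbln1, a matrix glycoprotein on chromosome 15, was the riser (0.81 ± 0.14). The part of these cells in the falls of growth factor, lysosomal and secreted genes was not tested. The fallers numbered 13 without long-culture replicate 1 and 10 without long-culture replicate 3.

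Matrix, contractile and Hox genes gave more falls than rises as well, and the cells they came from were not tested. Of 44 collagen chains 10 fell (22.7% against 6.69% of all genes) and 0 rose, with Col3a1 and Col1a2 held. Of 53 other matrix genes 16 fell (30.2%) and 5 rose (9.43% against 6.10% of all genes). Nid1, the nidogen that links basement membrane networks, read 11.34, 11.23 and 10.94 on the short-culture arrays and 10.06, 9.96 and 10.04 on the long-culture arrays, and Tnc, tenascin C, 9.97, 9.87 and 9.04 on the short-culture arrays and 8.28, 8.17 and 8.15 on the long-culture arrays. Against them Smoc1 (0.996 ± 0.17) and Fbn2 (0.72 ± 0.13) rose. Of 80 matrix proteases and inhibitors 17 fell (21.25%) and 3 rose (3.75%). Among the risers was Adam22, a surface protein of neurons (6.31, 6.30 and 6.51 on the short-culture arrays and 7.48, 7.59 and 7.62 on the long-culture arrays). Of 21 contractile genes 4 fell and 1 rose (median -0.13). Acta2, smooth muscle actin (8.85, 9.58 and 8.70 short, 7.93, 7.69 and 7.78 long), Cald1 (-1.06 ± 0.18), Tpm1 (-0.87 ± 0.14) and Ankrd1 (-1.02 ± 0.20) fell, and Myh11 (0.50 ± 0.09) rose. Of 37 Hox genes, which keep the positional memory of stromal cells, 7 fell (18.9%) and 0 rose. Hoxb6 (7.95, 7.46 and 7.64 short, 6.97, 6.96 and 6.74 long), Hoxb9 (-0.66 ± 0.11), Hoxa5 (-0.72 ± 0.14) and Hoxd4 (-0.46 ± 0.09) held. Fallers numbered 4 without short-culture replicate 2 and 2 without long-culture replicate 1 or 3 among collagens, 9 without long-culture replicate 1 or 2 and 8 without long-culture replicate 3 among other matrix genes, 10 without long-culture replicate 1 and 8 without long-culture replicate 3 among proteases and 4 without long-culture replicate 1 or 3 among Hox genes.

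**Figure D4:**
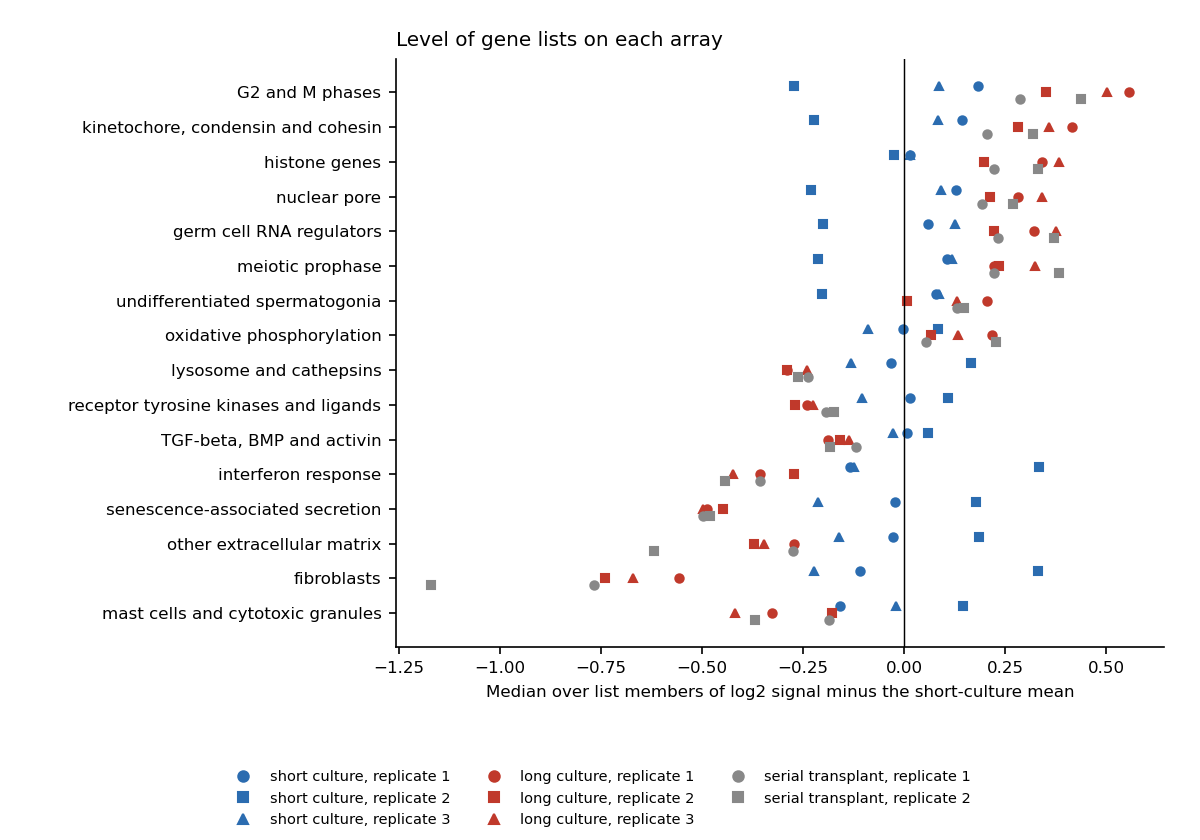
Median over list members of the log2 signal minus the gene's short-culture mean (horizontal axis), 1 point per array, for 16 lists; short-culture arrays are blue, long-culture arrays red and serial-transplant arrays grey. Short-culture replicate 2 (blue squares) is the lowest array on the mitotic list (-0.27) and the highest on the fibroblast list (0.33), and the long-culture arrays lie beyond all short-culture arrays on both.

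Sertoli and Leydig lists gave single-gene changes. Of 28 Sertoli genes 2 rose (7.14%) and 3 fell (10.7%). The rises were those of Wt1, the Wilms tumour factor of Sertoli cells (7.68, 7.96 and 8.17 on the short-culture arrays and 8.80, 8.77 and 8.94 on the long-culture arrays), and of Aard. Kitl is also a Sertoli product and is counted among the falls. Of 12 Leydig genes 3 fell, with Cyp11a1 held (8.24, 7.01 and 7.54 on the short-culture arrays and 5.45, 5.06 and 5.23 on the long-culture arrays). Endothelial genes gave 1 fall and 0 rises of 20. Sertoli fallers numbered 6 without short-culture replicate 3 and 1 without long-culture replicate 1 or 3. Leydig fallers numbered 1 without long-culture replicate 1 or 3.

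Genes of leukocyte granules headed the 20 largest falls. Of 29 mast cell and cytotoxic granule genes 11 fell (37.9%), 9 of them held, and the riser was Kit, which mast cells share with germ cells. Gzmc, a granzyme of cytotoxic lymphocytes, read 9.59, 10.83 and 9.54 on the short-culture arrays and 4.15, 4.18 and 4.31 on the long-culture arrays, a change of -5.77 ± 0.27 (limma, adjusted p = 3.44e-06). Gzmd (-5.40 ± 0.26), Gzme (-2.14 ± 0.11) and Gzmg (-1.11 ± 0.15) are its close paralogs, whose probes can share targets. Srgn, serglycin, which packs granules, read 7.08, 8.27 and 6.94 on the short-culture arrays and 4.56, 4.56 and 4.48 on the long-culture arrays. Cpa3, the mast cell carboxypeptidase, read 5.76, 8.71 and 7.12 on the short-culture arrays and 4.38, 4.49 and 4.36 on the long-culture arrays, spread widely over the short arrays. The pore protein Prf1 (-0.87 ± 0.14) and the granzymes Gzmb (-1.53 ± 0.25) and Gzmf (-0.86 ± 0.17), named after their values were seen, fell as well. The long-culture and serial-transplant levels of Gzmc (4.59 and 4.25 in the latter) lie in the background range. The fallers numbered from 9 to 13 in the 6 fits without 1 array.

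Some leukocyte surface genes fell beside them. Il2rb, the shared receptor chain for interleukins 2 and 15, read 7.68, 8.16 and 7.69 on the short-culture arrays and 5.87, 6.17 and 5.65 on the long-culture arrays. The natural killer receptors Klrb1b (-1.95 ± 0.28) and Ncr1 (-1.28 ± 0.18) fell to the background range. Ptprc, the pan-leukocyte antigen CD45, read 6.84, 7.42 and 6.86 on the short-culture arrays and 5.58, 5.64 and 5.65 on the long-culture arrays, Fcer1g, a signalling chain of Fc and natural killer receptors, 7.13, 7.94 and 7.10 on the short-culture arrays and 5.69, 5.76 and 5.64 on the long-culture arrays, and Laptm5, of leukocyte lysosomes, 7.30, 8.41 and 7.42 on the short-culture arrays and 5.37, 5.51 and 5.40 on the long-culture arrays. Of 21 lymphocyte genes 3 fell (14.3%), and of 28 macrophage genes 5 fell (17.9%), 4 of these held, and 24 had a negative change. Only 6 of the macrophage and 2 of the lymphocyte genes had a short- or long-culture mean above the median signal. Dim genes leaned negative elsewhere too: of 1194 olfactory and vomeronasal receptor genes, most of them in the background range, 842 had a negative change. Cd3e, of the T cell receptor complex, was among the falls (6.64, 7.07 and 6.77 on the short-culture arrays and 6.18, 6.57 and 6.25 on the long-culture arrays), a call that did not pass without some arrays (limma, adjusted p = 0.106 without short-culture replicate 2, 0.0591 without short-culture replicate 3, 0.151 without long-culture replicate 1 and 0.152 without long-culture replicate 3). The T cell genes Cd3d (5.28, 5.39 and 5.11) and Cd4 (4.91, 5.22 and 5.16) and the macrophage genes Adgre1 (4.56, 4.57 and 4.49) and Csf1r (5.46, 5.79 and 5.36), named after their values were seen, lay near or in the background range already on the short arrays. Summed signals ran from 3408.8 to 6248.7 on the short and from 2412.4 to 2477.0 on the long arrays for the granule list, from 1447.7 to 1594.4 and from 1117.3 to 1207.3 for lymphocytes, and from 2132.0 to 2672.5 and from 1593.7 to 1721.3 for macrophages. Fallers numbered from 4 to 5 in the 6 fits without 1 array among the macrophage genes and from 2 to 3 in the 6 fits without 1 array among the lymphocyte genes.

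Interferon-response genes fell too. Of 63, 18 fell (28.6%), 6 of them held, and 1 rose. The median was -0.39, or -0.21 without short-culture replicate 2, which was the highest array of all (-0.13, 0.33 and -0.12 on the short arrays). Ifit3, which binds viral RNA complexes, read 6.96, 8.55 and 7.36 on the short-culture arrays and 5.55, 6.05 and 5.89 on the long-culture arrays, and its neighbour Ifit2 7.71, 8.08 and 7.17 on the short-culture arrays and 6.49, 6.26 and 6.15 on the long-culture arrays. The guanylate-binding proteins Gbp9 (-1.70 ± 0.27), Gbp4 (-1.66 ± 0.28) and Gbp8 (-1.18 ± 0.22) and the DNA sensor family gene Ifi203 (-1.26 ± 0.24) held. The riser was Ifih1, the RNA sensor MDA5, named after its value was seen (0.54 ± 0.11). Antigen presentation gave 5 falls of 42 (11.9%), of which the peptide transporter Tap1 held (-0.87 ± 0.12). Interferon fallers numbered 11 without long-culture replicate 1 or 2 and 6 without long-culture replicate 3, and antigen presentation fallers 2 without long-culture replicate 1 and 1 without long-culture replicate 3.

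Promoters of interferon genes often carry a response element that the group is known for, shown here for 2 held falls. A pair of GAAA separated by any 2 bases is the core of the interferon-stimulated response element read by the ISGF3 and IRF factors. The lines give the same 200 bases around the RefSeq start on GRCm38.p6, with matches on either strand in capitals.
Ifit3 (chr19:34583354-34583553, plus strand): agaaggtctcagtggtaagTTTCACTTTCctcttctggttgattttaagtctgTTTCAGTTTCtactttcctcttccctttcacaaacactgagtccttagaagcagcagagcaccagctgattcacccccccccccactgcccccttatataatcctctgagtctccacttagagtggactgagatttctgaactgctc
Ifi203 (chr1:173942468-173942667, minus strand): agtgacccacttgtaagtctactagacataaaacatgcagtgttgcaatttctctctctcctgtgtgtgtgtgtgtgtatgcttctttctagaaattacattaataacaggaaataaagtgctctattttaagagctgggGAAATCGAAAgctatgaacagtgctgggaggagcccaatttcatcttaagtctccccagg
In Ifit3 the matches start at -156 and -122 on the other strand, and in the second of 2 Ifi203 promoters at -35 on the gene's strand. The motif occurred in 3.89% of 15614 promoters of measured genes and in 54.3% of the 46 interferon genes with a promoter. Of the 9 genes with a promoter that fell, 6 held it (66.7%).

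Chemokines, complement and serpins moved the same way. Of 72 chemokines and cytokines 17 fell (23.6% against 6.69% of all genes) and 0 rose, and 26 of the list lay in the background range. Cxcl16 read 8.04, 7.92 and 7.27 on the short-culture arrays and 6.87, 6.79 and 6.64 on the long-culture arrays, and Il18 (-1.10 ± 0.21), an interleukin released by caspases of inflammation, lay in the background range in both groups by its means. Of 76 complement, acute phase and serpin genes, 40 of them in the background range, 15 fell (19.7%) and 3 rose (3.95%). After quantile normalisation 9 of them fell. Cp, ceruloplasmin, the copper oxidase of iron transport, read 11.42, 12.18 and 11.23 on the short-culture arrays and 10.23, 10.09 and 10.07 on the long-culture arrays, and Serpinb9, the granzyme B inhibitor, 6.999, 7.07 and 6.43 on the short-culture arrays and 5.30, 5.28 and 5.27 on the long-culture arrays. Serpini1, neuroserpin (0.98 ± 0.14), and Serping1, the C1 inhibitor (0.70 ± 0.13), rose with A2m. Fallers numbered 10 without short-culture replicate 2, 9 without long-culture replicate 1 or 2 and 5 without long-culture replicate 3 among chemokines and 8 without long-culture replicate 1, 6 without long-culture replicate 2 and 5 without long-culture replicate 3 among complement and serpin genes.

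Large families served as a yardstick. Of 1194 olfactory and vomeronasal receptor genes, most of them in the background range, 14 fell (1.17%) and 1 rose (0.08%). Yet 842 of the 1194 had a negative change, and for 125 every long array lay below every short array (17.8% of all genes). Their median change was -0.06, and 0.0076 after quantile normalisation. Of 344 zinc-finger Zfp genes 22 rose (6.39%) and 11 fell, close to the background. Of 335 solute carriers 14 rose (4.18%) and 27 fell (8.06%), with the creatine carrier Slc6a8 (-1.22 ± 0.17) lower and the proton exchanger Slc9a7 (1.06 ± 0.16) higher among the held calls. Risers among the solute carriers numbered 9 without short-culture replicate 1 or 2, 5 without long-culture replicate 1 and 2 without long-culture replicate 3, and the fallers 15 without long-culture replicate 2 and 11 without long-culture replicate 1 or 3. Risers of the Zfp list numbered 10 without long-culture replicate 1 and 8 without long-culture replicate 3, and fallers of the receptor list 9 without short-culture replicate 3, 5 without long-culture replicate 1 and 4 without long-culture replicate 3.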

How the data were processed

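RNA of mouse spermatogonial stem cells was measured on 8 Affymetrix Mouse Gene 1.0 ST arrays. The deposited values are log2 intensities, normalised by the authors with RMA in Partek 6.4, per the submitters' processing notes, with a genome build not given in the sources used here. Of 35557 probe sets, 6613 controls were left out and 28944 tested. Names came from the platform annotation: 21789 probe sets carried 1 symbol, 1621 several and 5534 none, and 21698 of the first were found in RefSeq. Each of 19938 genes is represented by its brightest probe set, which mattered for 999 genes. limma 3.58.1 in R 4.3.3 fitted the 3 groups over all 8 arrays, and p-values were Benjamini-Hochberg adjusted over all probe sets. An exact permutation test of 3 against 3 arrays cannot go below 0.10 and was not used. Named genes are the 20 largest held rises and falls without overlap, up to 6 members with the smallest p of each of 74 lists, and 22 measured genes named in every case. For the 20 largest, the mean of the higher group had to lie above the median of all probe sets. Clone names (Gm or LOC numbers, Rik) were left out. That left 297 eligible rises and 351 eligible falls. Members and lists were chosen with earlier results of these data known. The fit was also run on simulated data, and the outcome is not given here. Promoters are those of RefSeq on GRCm38.p6. Array values carry no read depth, so precision rests on how many arrays there are. Alternatives are given at the end.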

Additional observations from a re-analysis of the deposited data

How the results depend on the processing

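Of 1217 rises and 1334 falls, fits that left out 1 array gave between 380 and 1138 rises and between 476 and 1416 falls, and array weights gave 1845 rises. Asking for a change of at least 1 left 73 and 244. Whether the replicate numbers pair the samples is not known. Deviations of same-numbered arrays correlated at 0.08, 0.18 and 0.10. Short-culture replicates 2 and 3 correlated best with the long-culture array of the same number. Short-culture replicate 1 correlated best with long-culture replicate 3 (0.25). A replicate block gave 993 rises and 1194 falls. The 340 held rises became 223 with the 6 compared arrays alone and 151 with the replicate block. The 427 held falls became 278 with the 6 arrays alone, 263 after quantile normalisation and 176 with the replicate block. Counts of held genes under each setting, and those without chromosome 15, were chosen after seeing the data. A signal near background limits falls of dim genes. Changes of 4 genes that passed no test changed sign. Cd3d stood at 0.0073 after quantile normalisation, and Etv5 at -0.031 with array weights and -0.033 after quantile normalisation. In fits without 1 array the change lay between -0.0615 and 0.09 for Cd4, between -0.18 and 0.18 for Etv5 and between -0.20 and 0.0069 for Igf2. No called gene named above changed sign in any setting run. Leaving out probe sets with a mean below the median signal changed the sign of 8 of 61 list medians, the most of any setting. Lists whose median changed sign in at least 1 setting were the retinoid, spermatid, Wnt, G1, DNA methylation, imprinted and cytosolic ribosomal lists. The TCA, glycolysis, unfolded protein response, autophagy, Sertoli, endothelial and olfactory lists did so too. The cause of these differences was not tested.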
